A study of Arabidopsis thaliana with 24 samples.

Results

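The heat response of wild-type Arabidopsis thaliana seedlings was read from polysome-bound mRNA, with 3 libraries of seedlings kept at 39 °C and 3 of seedlings kept at 23 °C, each for 60 min. These were chosen by their labels as the wild-type arm of the heat experiment and make up 6 of the 24 libraries of the series. Of the 32833 genes in the count table, 20923 passed a filter on low counts and were compared. Wild type was Col-0, and all seedlings were 9 days old, were grown on 1/2 MS medium with 1% sucrose and were taken whole, at about 200 mg per extraction. The other libraries hold the same heat treatment in exa1-1, a mutant of EXA1, which encodes a GYF-domain protein, and a treatment with 200 mM NaCl for 60 min in both genotypes with its own 1/2 MS control. The exa1-1 heat libraries entered the same fit, and the wild-type salt libraries served for 1 contrast.

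Plants answer a sudden rise in temperature through heat shock transcription factors (HSFs), which bind repeats of the pentamer GAANN, the heat shock element, and switch on genes for molecular chaperones. Small heat shock proteins (HSPs) hold unfolding proteins, the HSP70 and HSP90 machines refold them, and disaggregases of the HSP101 type pull aggregates apart. During heat many cellular messages leave polysomes while chaperone messages are translated, and the polysome fraction, messages carrying several ribosomes, therefore measures what is loaded for translation. Total RNA was not analysed here, so a change in transcript abundance and a change in ribosome loading cannot be told apart, and in whole seedlings fewer cells of a type and less RNA per cell cannot be told apart either.

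Library totals lay between 17912591 and 18540055 counts. The makeup of the libraries differed between temperatures far more than among replicates, as the 100 most counted genes held 18.53, 18.40 and 18.55% of all counts at 23 °C and 33.3, 33.3 and 33.3% at 39 °C. Scaling factors from TMM, which assumes that most genes do not change, were 1.39, 1.38 and 1.37 at 23 °C and 0.736, 0.740 and 0.734 at 39 °C. The wild-type log2 changes with heat are therefore given on 2 scales, TMM and library totals, which for the median gene are 0.91 apart, a factor of 1.87. No spike-in is stated in the sources used here, so the absolute amount of mRNA on polysomes was not measured and neither scale can be called the true one. The words rose and fell are kept for genes called in the same direction on both scales (edgeR's quasi-likelihood test, Benjamini-Hochberg adjusted p under 0.05), and levels are in CPM, counts scaled by library totals alone. Changes with salt, changes in exa1-1 and differences between contrasts are with TMM unless stated, and are called higher or lower rather than rising or falling. The SE given with a log2 change is its absolute value divided by the square root of the test's F statistic. It is too small for genes with few counts in 1 group, such as most small HSPs, HSFA2 and APX2 at 23 °C, and does not cover their counting error. As a check of the genotype labels, EXA1 (AT5G42950) was at 117, 112 and 110.4 CPM in the wild type at 23 °C and at 7.47, 7.56 and 9.13 in exa1-1, and at 59.1, 57.1 and 55.0 against 5.47, 4.29 and 4.30 at 39 °C.

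With TMM, 7999 genes were higher at 39 °C (38.2% of those tested) and 8840 were lower (42.3%), and the median log2 change was −0.10. With library totals, 3007 genes were higher (14.4%) and 15476 were lower (74.0%), and the median was −1.002. All 3007 genes higher with library totals were also higher with TMM, all 8840 lower with TMM were also lower with library totals, and 3038 genes (14.5%) were higher with TMM and lower with library totals. Beyond 2-fold, TMM gave 2834 higher (13.5%) and 3946 lower (18.9%), and library totals 1106 (5.29%) and 8999 (43.0%). The libraries of the 2 temperatures did not overlap, on the TMM scale, for 16996 genes (81.2%). Gaps between the groups given below for single genes are therefore shared by most genes and do not set those genes apart. A change of more than 2-fold on both scales was called for 1106 genes upward (5.29%) and 3946 genes downward (18.9%). The 1106 held 4.08, 4.10 and 4.12% of the counts at 23 °C and 32.8, 32.7 and 32.8% at 39 °C, and the 3946 went from 11.8, 11.6 and 11.5% to 1.67, 1.68 and 1.67%. Since both sets were chosen for their change, these shares describe its size and are not a test.

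**Figure D1:**
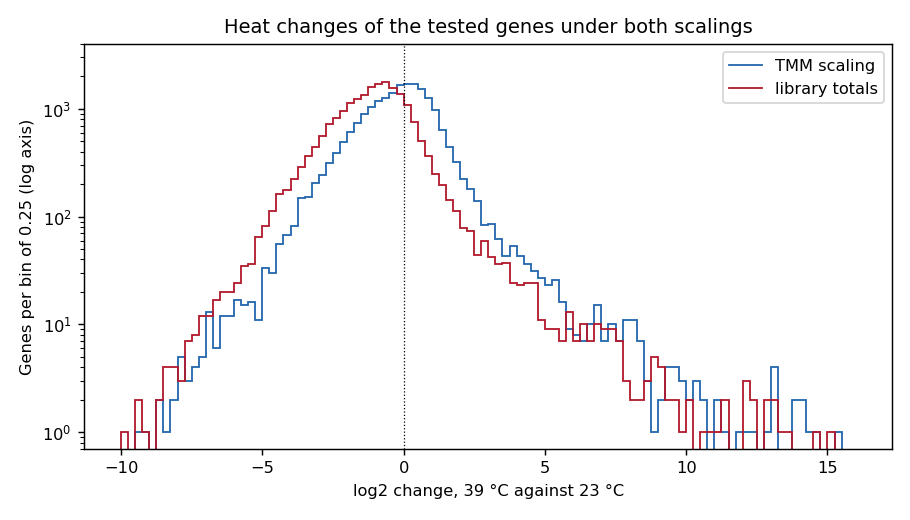
Number of tested genes per bin of 0.25 in log2 change (x axis, 39 °C against 23 °C in the wild type; y axis logarithmic) with TMM scaling (blue) and with library totals (red). The medians are −0.10 and −1.002, and the right tail of strongly higher genes is longer than the left one on both scales.

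Chaperone messages took a large place in the polysome fraction of heated seedlings. The 68 genes of 7 chaperone lists held 0.606, 0.586 and 0.567% of all counts at 23 °C and 16.0, 15.9 and 16.0% at 39 °C. Of the 68, 60 rose and 2 fell, beside 14.4% and 42.3% of all genes, and 54 rose by more than 2-fold, beside 5.29%. Their median log2 change was 4.95 with TMM and 4.05 with library totals. The remaining 1052 genes beyond 2-fold upward went from 3.61, 3.64 and 3.68% to 17.0, 16.9 and 16.9%, so chaperones made up less than all of the gain.

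**Figure D2:**
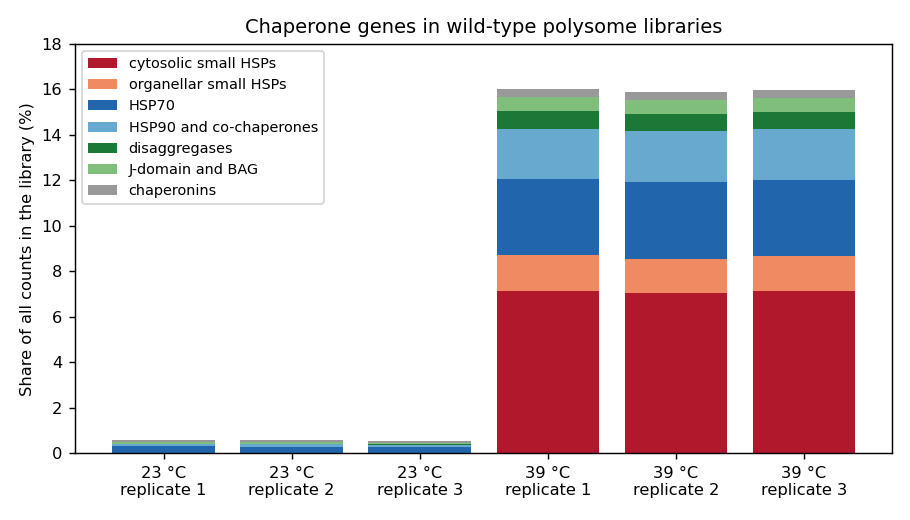
Share of all counts (y axis, percent, starting at 0) held by 7 chaperone gene lists in each of the 6 wild-type libraries (x axis). The stacked bars reach 0.606, 0.586 and 0.567% at 23 °C and 16.0, 15.9 and 16.0% at 39 °C, and cytosolic small HSPs are the largest segment at 39 °C.

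Small HSPs of the cytosol were nearly silent at 23 °C and became some of the most counted messages. Their 12 genes held 0.00696, 0.00727 and 0.00755% of all counts at 23 °C and 7.15, 7.03 and 7.13% at 39 °C. Of the 12, 11 rose and 1 fell, beside 14.4% and 42.3% of all genes. All 11 rose beyond 2-fold, beside 5.29% (median of the 12 13.49 with TMM and 12.58 with library totals). AT1G07400, annotated as an HSP20-like chaperone, was at 1.55, 1.79 and 2.32 CPM at 23 °C and 15198, 15392 and 15510.1 at 39 °C (13.89 with TMM (SE 0.06) and 12.98 with library totals, adjusted p = 2.91e-75). AT1G53540, of the same annotation, was at 0.554, 0.391 and 0.378 CPM at 23 °C and 10534, 10389 and 10502 at 39 °C (15.41 with TMM (SE 0.07) and 14.51 with library totals, adjusted p = 2.91e-75). HSP17.4, a class I small HSP, was at 1.44, 1.51 and 0.973 CPM at 23 °C and 10184, 10163 and 10136 at 39 °C (13.82 with TMM (SE 0.06) and 12.92 with library totals, adjusted p = 7.2e-75). In each of these all heated libraries stood far above all controls, and the 3 heated libraries lay close together. The exception was AT4G21870, also HSP20-like, which was at 21.7, 25.2 and 25.8 CPM at 23 °C and 10.03, 9.82 and 9.21 at 39 °C and fell (−0.42 with TMM (SE 0.11) and −1.32 with library totals, adjusted p = 0.000489). It was lower still with salt, by a log2 change of −5.13. Members of this family are similar in sequence, and how reads shared by near-identical copies were counted is not stated, so the split among them is uncertain.

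Small HSPs of organelles also rose, with 5 of 5 called beyond 2-fold, beside 5.29% of all genes (median 14.10 with TMM and 13.21 with library totals). Their summed share was 0.000543, 0.000508 and 0.000395% of all counts at 23 °C and 1.55, 1.53 and 1.57% at 39 °C. HSP21, the chloroplast member, was at 0.222, 0.223 and 0.108 CPM at 23 °C and 1802, 1779 and 1838 at 39 °C (14.10 with TMM (SE 0.08) and 13.21 with library totals). AT1G52560, another HSP20-like gene, was at 0.388, 0.112 and 0 CPM at 23 °C and 878, 869 and 899 at 39 °C (13.21 with TMM (SE 0.11) and 12.32 with library totals). Both had no overlap between temperatures, as held for 81.2% of all genes. ATHSP22.0, of the endomembrane system, had no count in the 3 control libraries and 324703 in the 3 heated ones, at least 107572-fold higher by library totals when the control group is set at the floor of 3 counts.

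All 13 HSP70 genes were higher with TMM and 12 of them rose, beside 38.2% and 14.4% of all genes (median 3.76 with TMM and 2.86 with library totals). In all they held 0.313, 0.295 and 0.278% of all counts at 23 °C and 3.34, 3.38 and 3.32% at 39 °C. The gene named HSP70 (AT3G12580) was at 17.8, 19.99 and 18.3 CPM at 23 °C and 8433, 8329 and 8417 at 39 °C (9.72 with TMM (SE 0.05) and 8.81 with library totals, adjusted p = 1.87e-73). Hsp70b was at 10.9, 9.32 and 10.6 CPM at 23 °C and 6128, 6149 and 6201 at 39 °C (10.13 with TMM (SE 0.05) and 9.22 with library totals), and the mitochondrial MTHSC70-2 was at 13.4, 11.2 and 11.7 CPM at 23 °C and 1033, 1039 and 1018 at 39 °C (7.32 with TMM (SE 0.06) and 6.41 with library totals). These inducible members started low. HSC70-1, the constitutive cytosolic form, was already at 2326, 2172 and 2018 CPM at 23 °C and 7719.6, 7962 and 7582 at 39 °C and gained less (2.74 with TMM (SE 0.04) and 1.84 with library totals). HSP91, of the HSP110 type, was at 148, 136 and 134 CPM at 23 °C and 119, 129 and 115 at 39 °C, and its direction turned with the scale, 0.70 and −0.20.

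Among HSP90 genes and their co-chaperones 13 of 15 rose and none fell, beside 14.4% and 42.3% of all genes (median 4.13 with TMM and 3.23 with library totals). HSP90.1, the heat-inducible cytosolic HSP90, was at 14.3, 15.9 and 16.5 CPM at 23 °C and 7108, 7151 and 7163 at 39 °C (9.74 with TMM (SE 0.05) and 8.84 with library totals, adjusted p = 7.3e-73). HSP81-2, a constitutive one, was at 176, 193 and 186 CPM at 23 °C and 5547, 5569.5 and 5508 at 39 °C (5.81 with TMM (SE 0.04) and 4.90 with library totals). Hop3, which bridges HSP70 and HSP90, was at 17.2, 17.4 and 14.5 CPM at 23 °C and 2494, 2466 and 2494 at 39 °C (8.15 with TMM (SE 0.05) and 7.24 with library totals). In none of the 3 genes did the groups overlap, as for 81.2% of all genes. HSP90.1 and Hop3 started from similar levels, which overlapped, and HSP81-2 from a higher one. The immunophilin gene ROF1 changed by 5.55 and 4.64, while SGT1B, a co-chaperone of immune receptors, was higher with TMM and not called with library totals (0.94 and 0.03).

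The 5 disaggregases and genes of heat memory all rose beyond 2-fold, beside 5.29% of all genes (median 6.49 with TMM and 5.60 with library totals). HSP101, the cytosolic disaggregase, was at 10.98, 9.55 and 12.2 CPM at 23 °C and 6051, 5986 and 6117 at 39 °C (10.02 with TMM (SE 0.06) and 9.11 with library totals, adjusted p = 3.38e-61). Its chloroplast counterpart CLPB3 changed by 6.53 and 5.62 and HSA32, needed for acquired thermotolerance, by 5.49 and 4.58. J-domain and BAG co-chaperones were more mixed, with 7 of 11 rising and 1 falling, beside 14.4% and 42.3% of all genes. Those that rose included J3 (4.02 and 3.12), the ER-localised ATERDJ3A (8.43 and 7.52) and BAG6 (7.77 and 6.86), whereas BAG2 fell (−0.97 and −1.87). All 7 chaperonins, the barrel-shaped folding machines of mitochondria and chloroplasts, rose, beside 14.4% of all genes. HSP60 rose by 3.77 and 2.86 and Cpn60beta2 by 4.88 and 3.97, the first value of each pair being TMM and the second library totals here and below.

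The HSF family split into members that rose steeply and members that changed little or fell. Of 19 tested, 11 rose and 5 fell, beside 14.4% and 42.3% of all genes. Their median was 1.77 with TMM and 0.87 with library totals. The family held 0.0283, 0.0291 and 0.0287% of all counts at 23 °C and 0.685, 0.667 and 0.674% at 39 °C. HSFA2, the amplifier of the heat response, was at 0.443, 1.23 and 1.62 CPM at 23 °C and 4678, 4568 and 4642 at 39 °C (12.93 with TMM (SE 0.11) and 12.03 with library totals, adjusted p = 6.72e-24). AT-HSFA7B had 3 counts over the 3 control libraries and 16735 over the heated ones, a ratio of 5544 (95% counting interval 1897 to 26887) by library totals. HSFA3, which acts downstream of DREB2A, was at 14.9, 13.2 and 14.4 CPM at 23 °C and 162, 158 and 164 at 39 °C (4.41 with TMM (SE 0.07) and 3.50 with library totals). In each of these all heated libraries exceeded all controls, where 81.2% of all genes had groups that did not overlap. Class B factors, which lack the activation motif of class A and mostly repress, were divided, and HSFB3 and HSFB4 fell. HSF4 rose and was at 89.5, 90.8 and 88.3 CPM at 23 °C and 1056, 1014 and 1009.7 at 39 °C (4.43 with TMM (SE 0.04) and 3.52 with library totals), and AT-HSFB2B rose by 4.07 and 3.17 and HSFB2A by 3.91 and 2.999 on the log2 scales.

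The HSFA1 group, the master regulators held in check before heat, moved by far less than HSFA2. HSFA1E was at 5.99, 6.48 and 6.38 CPM at 23 °C and 25.2, 28.97 and 24.7 at 39 °C (2.97 with TMM (SE 0.11) and 2.06 with library totals) and HSFA1D at 10.4, 7.09 and 8.32 CPM at 23 °C and 15.7, 17.5 and 13.9 at 39 °C (1.77 with TMM (SE 0.12) and 0.87 with library totals), neither with overlap, as for 81.2% of all genes. HSF1 was at 2.00, 3.85 and 2.00 CPM at 23 °C and 3.83, 4.66 and 4.55 at 39 °C (1.64 with TMM (SE 0.23) and 0.73 with library totals), where 1 control library lay within the heated range, and HSF3 was higher with TMM and lower with library totals (0.65 and −0.26). Members that fell were HSFB3 (−2.35 and −3.22), HSFA8 (−0.73 and −1.64), AT5G45710 (−0.66 and −1.57), AT-HSFA5 (−0.41 and −1.31) and HSFB4 (−0.55 and −1.45). HSFA6B, which is known from water deficit, rose by 2.59 and 1.69 in heat and was higher by 7.57 with salt.

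**Figure D3:**
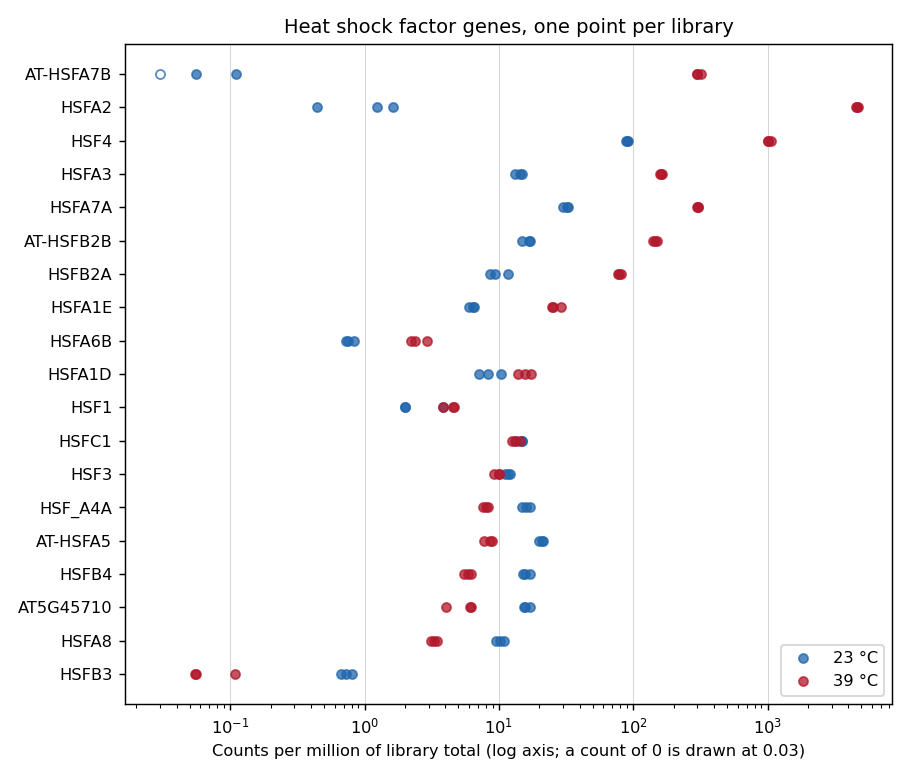
Level in CPM (x axis, logarithmic, an open circle at 0.03 standing for no count) for the 19 tested HSF genes, ordered by log2 change with TMM, with 1 point per library at 23 °C (blue) and 39 °C (red). AT-HSFA7B and HSFA2 show the widest gaps, and the points of HSFC1 overlap between temperatures.

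Partners of the HSFs went along in part, with 4 of 7 rising and none falling, beside 14.4% and 42.3% of all genes. Their median was 4.70 with TMM and 3.79 with library totals. MBF1C, a coactivator of the heat response, was at 10.5, 8.88 and 12.2 CPM at 23 °C and 2056, 2012 and 2055 at 39 °C (8.50 with TMM (SE 0.08) and 7.59 with library totals). DREB2A, a transcription factor of heat and drought, was at 8.32, 7.87 and 6.70 CPM at 23 °C and 329, 319 and 316 at 39 °C (6.30 with TMM (SE 0.06) and 5.40 with library totals) and was also higher with salt (3.69). NF-YC10, a partner of DREB2A, was higher with TMM only (0.96 and 0.06), and HSBP, a negative regulator that binds HSFs, was higher with TMM and lower with library totals (0.52 and −0.39).

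The DNA upstream of these genes was searched for a heat shock element of 3 alternating pentamers, written GAANNTTCNNGAA, on both strands within 500 bases before the start of the RefSeq transcript with the longest coding sequence. It was present in 182 of 20132 tested genes with such a window (0.904%). It was present in 35 of 1006 genes beyond 2-fold upward (3.48%), in 18 of 3786 beyond 2-fold downward (0.475%) and in 6 of the 50 with the largest rise (12%). Of genes with 1 match 17.1% rose beyond 2-fold, and of the 12 genes with 2 or more matches 50% did, beside 4.87% of genes without one. Other motifs were found in every set. The shorter heat shock element GAANNTTC was in 23.6% of the upward and 17.4% of the downward set, beside 18.4% of all. AAACCCTA was in 5.96% and 5.49%, beside 6.93%. The dehydration-response core CCGAC was in 35.6% of the upward and 18.3% of the downward set, beside 23.3% of all, the G-box CACGTG in 17.7% and 8.21%, beside 10.4%, and TGGGCC, a motif of housekeeping genes, in 26.4% and 12.0%, beside 20.5%. These are shares with no test, a match is not a bound site, and most of the rising genes had no match in this window, while of the 68 chaperone genes 5 had one. Stretches of 61 bases around the match nearest the start are shown for an array of genes with large changes, read from the RefSeq genome TAIR10.1 on the strand of the gene, with the matched letters in capitals (a match beginning TTC is the same element on the other strand).
HSP17.4, chr3:16984849-16984909, minus strand: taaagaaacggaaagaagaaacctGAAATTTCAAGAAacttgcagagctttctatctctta
AT1G53540, chr1:19980222-19980282, plus strand: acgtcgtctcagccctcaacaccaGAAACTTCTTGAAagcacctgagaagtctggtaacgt
AT3G09440, chr3:2905749-2905809, minus strand: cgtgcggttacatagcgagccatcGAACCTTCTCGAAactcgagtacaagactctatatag
HSP90.1, chr5:21352238-21352298, plus strand: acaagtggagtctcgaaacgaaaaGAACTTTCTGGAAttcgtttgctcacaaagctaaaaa
HSFA2, chr2:11135512-11135572, plus strand: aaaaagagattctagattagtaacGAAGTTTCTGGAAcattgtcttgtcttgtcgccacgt
AT-HSFA7B, chr3:23399055-23399115, plus strand: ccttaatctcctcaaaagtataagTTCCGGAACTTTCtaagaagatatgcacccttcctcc
DREB2A, chr5:1602017-1602077, plus strand: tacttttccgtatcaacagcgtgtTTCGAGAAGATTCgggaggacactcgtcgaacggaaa
GolS1, chr2:19370542-19370602, minus strand: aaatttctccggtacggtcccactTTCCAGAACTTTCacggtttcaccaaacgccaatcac
Counted from the first base of the match to the start of that transcript, the match lay 44 bases upstream in HSP17.4, 53 in AT1G53540, 56 in AT3G09440, 98 in HSFA2 and 295 in HSP90.1. The annotated gene begins further upstream than that transcript in 3 of them, which puts the match 18 bases before the gene in HSP17.4, 88 before it in HSFA2 and inside the span of longer transcripts in AT3G09440. AT3G09440, an HSP70 gene with 2 matches, was at 118, 127 and 119.8 CPM at 23 °C and 6553, 6747 and 6582 at 39 °C (6.67 with TMM (SE 0.04) and 5.77 with library totals).

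Folding genes of the endoplasmic reticulum (ER), the compartment of secreted proteins, moved with the cytosolic chaperones. Of 15, 9 rose and 1 fell, beside 14.4% and 42.3% of all genes (median 1.73 with TMM and 0.82 with library totals). BIP2, the ER HSP70, was at 94.1, 107 and 112 CPM at 23 °C and 1373, 1392 and 1380.4 at 39 °C (4.63 with TMM (SE 0.05) and 3.73 with library totals). CNX1, the lectin chaperone calnexin, was at 98.7, 99.8 and 94.3 CPM at 23 °C and 672, 695 and 690.1 at 39 °C (3.72 with TMM (SE 0.04) and 2.81 with library totals). BZIP28 and BZIP60, transcription factors of the unfolded protein response, rose by 3.18 and 2.27 and by 1.76 and 0.86, while the sensor gene IRE1-1 fell (−0.48 and −1.39). With salt, BIP2 and CNX1 went the other way (−1.23 and −1.73).

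Protective metabolites and antioxidants gave large changes in single genes. GolS1, a galactinol synthase that supplies raffinose sugars, was at 15.5, 14.8 and 13.6 CPM at 23 °C and 1901, 1899.7 and 1859 at 39 °C (7.92 with TMM (SE 0.05) and 7.01 with library totals). GolS2 rose by 7.28 and 6.38, and with salt GolS1 changed by 1.32 and GolS2 by 8.65. Of 17 antioxidant genes 8 rose and 4 fell, beside 14.4% and 42.3% of all genes. APX2, the heat-inducible ascorbate peroxidase, had 4 counts in the 3 controls and was at 0.111, 0 and 0.108 CPM at 23 °C and 179.8, 186 and 186 at 39 °C (12.03 with TMM (SE 0.12) and 11.16 with library totals), whereas RBOHD, the NADPH oxidase of stress signalling, fell (−2.23 and −3.14).

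Genes known for cold and drought were higher in heat as well, to different degrees. All 6 tested cold-response genes rose (median 4.66 with TMM and 3.76 with library totals) and all 6 were higher with salt, beside 35.6% of all genes (median 3.99 with TMM). COR47, a dehydrin, was at 278, 282 and 298 CPM at 23 °C and 2066, 2131 and 2080.4 at 39 °C (3.78 with TMM (SE 0.04) and 2.87 with library totals), and COR15A, a chloroplast stabiliser, at 1.66, 1.23 and 1.51 CPM at 23 °C and 24.9, 22.9 and 26.3 at 39 °C (4.97 with TMM (SE 0.13) and 4.06 with library totals), with no overlap in either, as for 81.2% of all genes. Of 17 genes of abscisic acid and osmotic stress 9 rose and 1 fell, beside 14.4% and 42.3% of all genes. Their median was 1.08 with TMM and 0.18 with library totals. With salt 17 of 17 were higher, beside 35.6% of all genes (median 3.85). In the test of heat against salt 13 of the 17 were lower in heat and 3 higher, beside 40.0% and 36.6% of all genes in that contrast (with library totals, 13619 genes were lower in heat than with salt and 3611 higher, over 21499 genes). LTI78, a drought and cold marker, rose in heat and was higher with salt (heat 5.57 and 4.66, salt 4.66). P5CS1, which makes proline, fell in heat (−0.36 and −1.27) and was higher with salt (3.85).

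**Figure D4:**
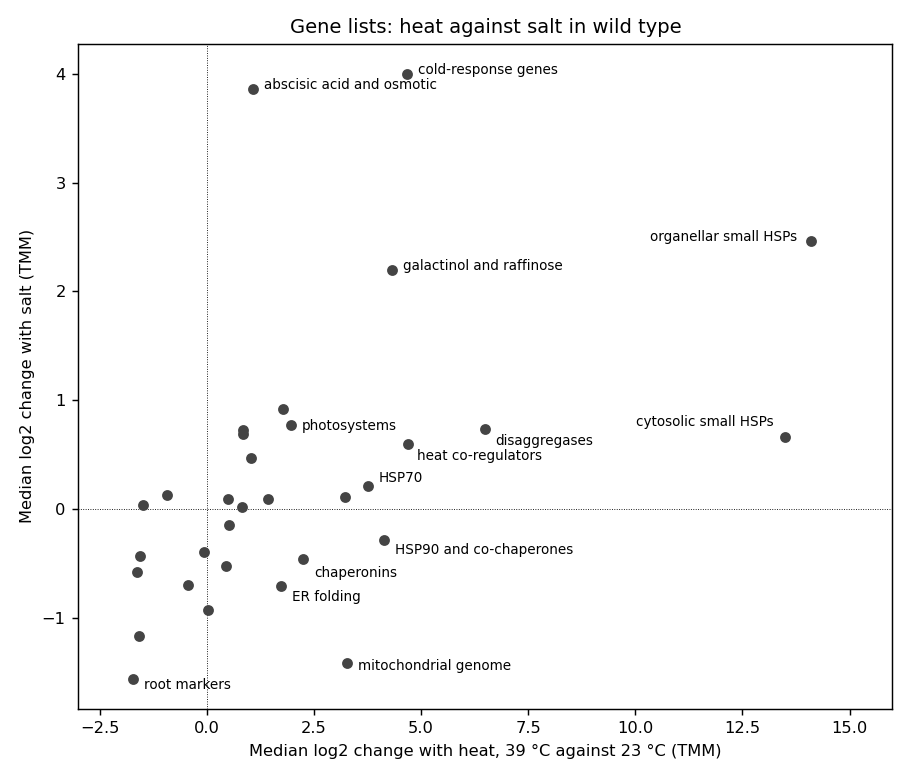
Median log2 change of 32 gene lists with heat (x axis, TMM) and with salt (y axis, TMM) in wild-type seedlings, each against its own control. The 7 chaperone lists lie to the right with salt medians between −0.45 and 2.46, the abscisic acid list is high on the salt axis and at 1.08 on the heat axis, and the mitochondrial genome is positive with heat and negative with salt.

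Some of the sharpest differences between the stresses were genes that fell in heat and were higher with salt. BCB, a blue copper-binding protein, was at 135, 133 and 134 CPM at 23 °C and 3.94, 3.62 and 3.55 at 39 °C (−4.27 with TMM (SE 0.08) and −5.17 with library totals) and changed by 2.96 with salt. GLYI7, a glyoxalase, changed by −1.31 and −2.22 in heat and by 4.50 with salt. Over the 1106 genes that rose beyond 2-fold in heat, 639 (57.78%) were called higher with salt and 172 (15.55%) lower, and of the 3946 that fell beyond 2-fold, 1798 (45.57%) were lower and 912 (23.11%) higher. Of all genes 35.6% were higher and 34.3% lower with salt.

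Nuclear genes for the photosystems and light-harvesting antenna gained in share. Of 44 tested, 41 rose and 1 fell, beside 14.4% and 42.3% of all genes, and 22 rose by more than 2-fold, beside 5.29%. Their median was 1.96 with TMM and 1.05 with library totals. Their share was 5.40, 5.33 and 5.39% of all counts at 23 °C and 9.35, 9.36 and 9.38% at 39 °C. CAB2, an antenna protein, was at 60.3, 62.4 and 56.4 CPM at 23 °C and 1504, 1497 and 1485 at 39 °C (5.55 with TMM (SE 0.05) and 4.65 with library totals), and LHCB2.1 at 20.9, 19.04 and 22.9 CPM at 23 °C and 346, 368 and 361 at 39 °C (5.001 with TMM (SE 0.06) and 4.09 with library totals). Both heated groups lay wholly above the controls, where 81.2% of all genes had groups that did not overlap. CAB1, the most counted of these genes, was at 16907, 16004 and 15702 CPM at 23 °C and 16106, 16175 and 15822 at 39 °C, overlapping by library totals (0.89 and −0.02, the latter not called). CAB1 and CAB2 are near-identical neighbours, so the division of reads between them is uncertain. With salt 42 of the 44 were higher and none lower, beside 35.6% and 34.3% of all genes (median 0.78 with TMM).

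Of 16 genes of the Calvin cycle, which fixes carbon dioxide, 8 rose and 1 fell, beside 14.4% and 42.3% of all genes. Their median was 0.84 with TMM and −0.06 with library totals. RCA, the heat-sensitive activator of Rubisco, was at 1781, 1793 and 1813 CPM at 23 °C and 3708, 3705 and 3663 at 39 °C (1.95 with TMM (SE 0.03) and 1.04 with library totals). RBCS3B, a Rubisco small subunit, rose (2.22 and 1.31), while RBCS1A, the most counted small subunit, was higher with TMM and lower with library totals (0.55 and −0.35). ELIP1, which binds chlorophyll under light stress, was at 0.776, 0.447 and 0.973 CPM at 23 °C and 386, 389 and 385 at 39 °C (9.93 with TMM (SE 0.08) and 9.03 with library totals).

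Transcripts of the mitochondrial genome were higher in heat. Of 30 tested genes 22 rose and none fell, 19 beyond 2-fold, beside 14.4%, 42.3% and 5.29% of all genes (median 3.27 with TMM and 2.39 with library totals). The mitochondrial share was 0.0371, 0.0395 and 0.0380% of all counts at 23 °C and 0.118, 0.116 and 0.117% at 39 °C. Most of these counts came from ribosomal RNA genes, ATMG00020 with 15783 counts over the control libraries and 29362 over the heated ones, and ATMG01390 with 3690 and 29077. cox1, a subunit of cytochrome oxidase, was at 1.33, 1.62 and 1.89 CPM at 23 °C and 27.6, 28.2 and 26.4 at 39 °C (4.98 with TMM (SE 0.14) and 4.08 with library totals). Of 47 tested genes of the chloroplast genome 5 rose and 16 fell, shares near or below those of all genes (median −0.44 with TMM and −1.33 with library totals). These RNAs are made and translated inside organelles and most lack the poly(A) tail of nuclear messages. Arabidopsis chromosome 2 also carries a copy of much of the mitochondrial genome, so the origin of such reads is uncertain.

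The translation machinery itself moved little relative to the scaling. Of 177 tested genes for cytosolic ribosomal proteins 13 rose and 14 fell, below the 14.4% and 42.3% of all genes. Of the 177, 135 were higher with TMM and 148 were lower with library totals (median 0.43 with TMM and −0.47 with library totals), so the direction of the family turned with the scale. RPL3B was the largest rise among them (2.31 and 1.41). Among 19 translation factors 6 rose and none fell, beside 14.4% and 42.3% of all genes. eIFiso4G2, a scaffold of the plant-specific initiation complex, was at 33.7, 33.05 and 33.6 CPM at 23 °C and 159.6, 153 and 153 at 39 °C (3.12 with TMM (SE 0.05) and 2.21 with library totals). LARP1a, an RNA-binding protein of heat-induced mRNA decay, fell (−1.09 and −1.9998). Proteasome subunits were higher with TMM in 28 of 30, beside 38.2% of all genes. Of the 30, 10 rose and 1 fell, beside 14.4% and 42.3% (median 0.83 with TMM and −0.08 with library totals). UBQ14, a polyubiquitin gene, was at 189.5, 189.98 and 181 CPM at 23 °C and 2077, 2088 and 2045 at 39 °C (4.38 with TMM (SE 0.04) and 3.47 with library totals), and AtATG18a, of autophagy, rose by 3.14 and 2.23. Among 20 splicing regulators 4 rose, a share near the 14.4% of all genes, and 4 fell, below the 42.3% of all genes. SR45a (4.66 and 3.75) and SR30 (3.11 and 2.20) were the 2 beyond 2-fold upward, beside 5.29% of all genes.

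**Figure D5:**
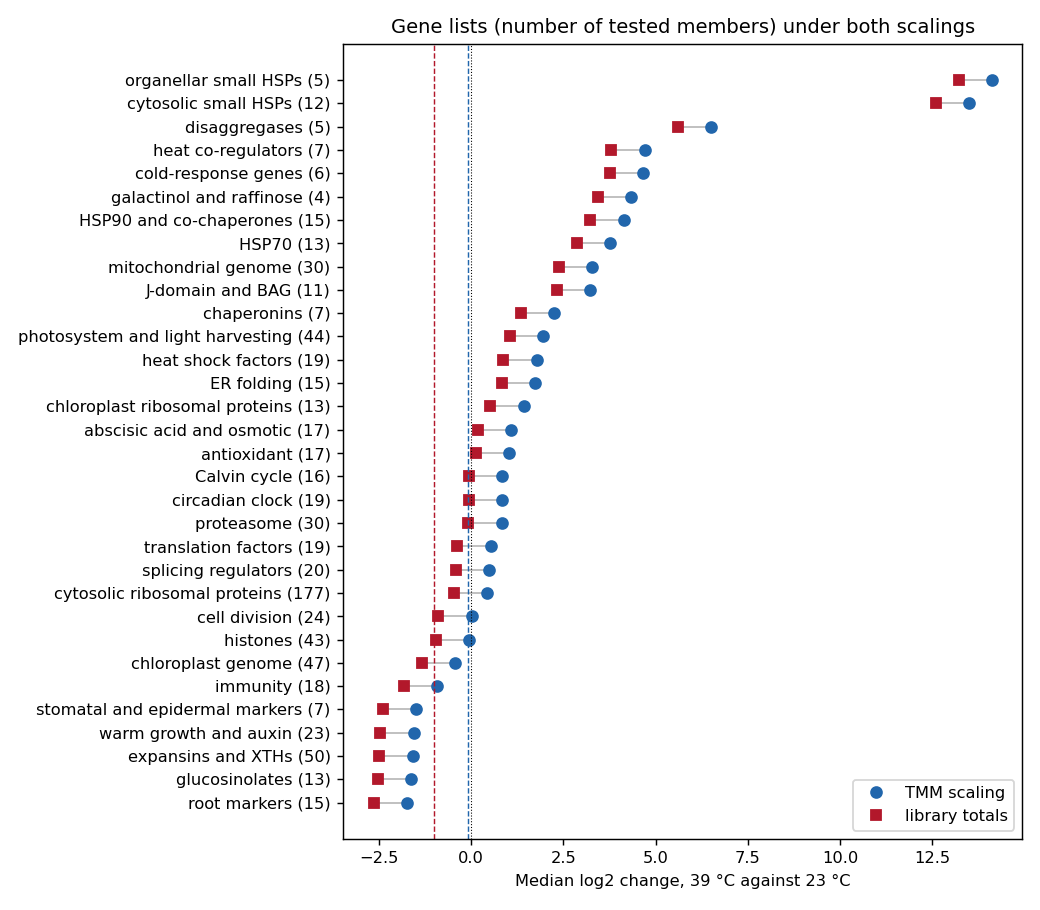
Median log2 change (x axis) of 32 gene lists, with the number of tested members in brackets, with TMM (blue circles) and library totals (red squares), joined by grey lines. Dashed lines mark the medians of all tested genes, −0.10 and −1.002, and the cytosolic ribosomal proteins, proteasome and Calvin cycle lists lie on either side of 0 depending on the scale.

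The circadian clock list shifted in both directions, with 9 of 19 rising and 5 falling, beside 14.4% and 42.3% of all genes. Its median was 0.84 with TMM and −0.06 with library totals. PRR9, a morning repressor, had 3 counts over the control libraries and 430 over the heated ones, a ratio of 142 (95% counting interval 48.4 to 693). AT5G64170, another member, was at 1.16, 1.06 and 1.30 CPM at 23 °C and 81.2, 75.6 and 77.7 at 39 °C (6.95 with TMM (SE 0.10) and 6.05 with library totals). GI rose by 3.70 and 2.80 and CCA1 by 3.90 and 2.997. TOC1, an evening repressor, was at 285, 266 and 269.9 CPM at 23 °C and 43.2, 46.6 and 42.6 at 39 °C and fell (−1.73 with TMM (SE 0.05) and −2.63 with library totals). The time of day of sampling is not given in the labels.

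Genes of auxin-driven growth and cell-wall loosening were mostly lower in heat. Of 23 genes of warm-temperature growth and auxin 4 rose and 16 fell (median −1.56 with TMM and −2.46 with library totals), and of 50 expansins and xyloglucan-modifying enzymes, which loosen the cell wall, 2 rose and 40 fell, beside 14.4% and 42.3% of all genes (median −1.59 with TMM and −2.49 with library totals). EXPA1, an expansin, was at 93.1, 89.6 and 90.4 CPM at 23 °C and 2.10, 2.14 and 2.27 at 39 °C (−4.48 with TMM (SE 0.11) and −5.39 with library totals). TCH4, a xyloglucan endotransglucosylase induced by touch, was at 228, 229 and 226 CPM at 23 °C and 22.2, 23.3 and 26.6 at 39 °C (−2.34 with TMM (SE 0.06) and −3.24 with library totals). SHY2, an auxin-signalling repressor, fell (−4.85 and −5.75 on the log2 scales). PIF4, the factor that drives growth at mild warmth, rose (1.38 and 0.47). Core cell-division genes had a median of 0.01 with TMM and −0.89 with library totals with 1 of 24 rising and 7 falling, below the shares of all genes. Of 43 histone genes 7 rose and 21 fell, near those shares, and single members moved far in either direction. AT3G53730, a histone gene, was at 45.5, 55.05 and 61.5 CPM at 23 °C and 1.78, 1.15 and 1.89 at 39 °C (−4.16 with TMM (SE 0.15) and −5.07 with library totals), while AT1G75600, another, went from 2 counts over the control libraries to 2181 over the heated ones, a ratio of 1084 (95% counting interval 299.7 to 8955). Histone genes are near-identical in places, so this split is uncertain.

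Genes of defence metabolism and immunity were mostly lower. All 13 glucosinolate genes, which make the sulfur-rich defence compounds of this plant family, fell, 11 beyond 2-fold, beside 42.3% and 18.9% of all genes. Their median was −1.62 with TMM and −2.53 with library totals. CYP79F2, an entry enzyme, was at 33.04, 30.4 and 30.9 CPM at 23 °C and 1.29, 0.823 and 0.721 at 39 °C (−4.14 with TMM (SE 0.15) and −5.04 with library totals), and MYB28, the regulator of the aliphatic branch, at 45.9, 40.9 and 38.3 CPM at 23 °C and 1.24, 1.65 and 2.22 at 39 °C (−3.71 with TMM (SE 0.14) and −4.61 with library totals). The groups did not overlap in either gene, as in 81.2% of all genes. Of 18 immunity genes 1 rose and 13 fell (median −0.93 with TMM and −1.83 with library totals), beside 42.3% falling among all genes. AT5G46330, a leucine-rich receptor-like kinase of this list, fell (−3.66 and −4.57), as did CBP60G, a regulator of salicylic acid synthesis (−2.07 and −2.97). NPR1, the salicylic acid receptor and coactivator, was the 1 that rose (1.40 and 0.50).

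Markers of cell types were read as a whole because the seedlings were taken whole. Of 15 root markers none rose and 14 fell, beside 14.4% and 42.3% of all genes (median −1.73 with TMM and −2.63 with library totals). Their summed share was 0.0201, 0.0188 and 0.0191% of all counts at 23 °C and 0.00475, 0.00488 and 0.00485% at 39 °C. SHR, a regulator of the root ground tissue, changed by −2.89 and −3.80, SCR, its partner, by −1.96 and −2.86, and the endodermal CASP1 by 0.63 and −0.28, the exception to the fall. Of 7 stomatal and epidermal markers 6 fell, beside 42.3% of all genes (median −1.49 with TMM and −2.40 with library totals). They held 0.0243, 0.0250 and 0.0250% of all counts at 23 °C and 0.00969, 0.00941 and 0.00956% at 39 °C. FMA, of guard-cell differentiation, changed by −2.26 and −3.16. All 22 of these markers had counts in both groups. Of 8 vascular and meristem markers 1 rose and 2 fell (median 0.08 with TMM and −0.83 with library totals). Of 5 seed markers 1 rose and 2 fell (median −0.80 with TMM and −1.68 with library totals). These counts stand beside 14.4% and 42.3% of all genes, and with so few members they do not set either list apart. The part that tissue makeup played in the falls above was not tested.

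By the rule for named genes, the largest single fall was that of ATL8, a RING/U-box gene. It had 939 counts over the control libraries and 1 over the heated ones, a ratio of 945 (95% counting interval 169 to 37356). TAS3 (described below), UCC2 (−5.95 and −6.85) and OXS3 (−5.71 and −6.62) followed. Further down the list were regulators of growth and nutrient use. BT2, a scaffold protein of nitrogen and sugar responses, was at 788, 772 and 739 CPM at 23 °C and 10.2, 10.3 and 9.82 at 39 °C (−5.34 with TMM (SE 0.06) and −6.24 with library totals, adjusted p = 3.01e-57). NAC1, a root development factor, was at 41.8, 36.7 and 37.8 CPM at 23 °C and 0.485, 0.439 and 0.388 at 39 °C (−5.55 with TMM (SE 0.17) and −6.45 with library totals). TEM1, a repressor of flowering, was at 159.7, 156 and 153 CPM at 23 °C and 3.99, 3.29 and 3.33 at 39 °C (−4.55 with TMM (SE 0.08) and −5.46 with library totals), and SPL3, which promotes it, at 74.5, 78.2 and 95.1 CPM at 23 °C and 1.67, 2.85 and 1.55 at 39 °C (−4.44 with TMM (SE 0.17) and −5.35 with library totals). That the groups do not overlap was part of the rule. MYB34, a regulator of indole glucosinolates, was also among them (−4.33 and −5.24).

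A set of copper-related genes, put together after the values had been seen and therefore given as a description, moved opposite to 2 microRNA genes. MicroRNAs guide cleavage of matching messages, and RefSeq notes name superoxide dismutases and cytochrome oxidase members as targets of MIR398, and a laccase and a plantacyanin-like gene as targets of MIR408. The mature microRNAs are shown 5′ to 3′ from RefSeq TAIR10.1 with the seed (bases 2 to 8) in capitals, followed by the best ungapped match in 3 target genes with the Watson-Crick paired bases in capitals.
MIR398b 3p, chr5:4691107-4691127, plus strand: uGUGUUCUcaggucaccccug
MIR408 3p, chr2:19319933-19319953, plus strand: aUGCACUGccucuucccuggc
CSD1, MIR398b match: aAGGGGUuuCCUGAGAuCACA
LAC3, MIR408 match: aCCAGuGAAGAGGCuGUGCAg
ARPN, MIR408 match: cCaAGGGAAGAGGCAGUGCAU
The CSD1 match paired at 17 of 21 bases in the 5′ UTR, and 0.0146% of 27444 transcripts held a match as good. The LAC3 match paired at 17 (0.0292%) and the ARPN match at 19 (0.00364%), both in coding sequence.

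The microRNA genes rose in the polysome libraries, as ath-MIR398b was at 22.3, 17.4 and 17.9 CPM at 23 °C and 162, 168 and 159.7 at 39 °C (3.995 with TMM (SE 0.06) and 3.09 with library totals) and ath-MIR408 at 12.5, 10.5 and 10.4 CPM at 23 °C and 53.4, 52.96 and 48.9 at 39 °C (3.12 with TMM (SE 0.08) and 2.21 with library totals). Each overlaps a coding gene on the opposite strand, AT5G14550 and AT2G47020, neither of which rose beyond 2-fold, and the strand setting of the counting is not stated, so whether all these reads came from the microRNA genes is uncertain. They are reads of longer transcripts, since the mature forms are too short for such libraries. CSD1, a cytosolic copper/zinc superoxide dismutase, was at 41.97, 44.3 and 42.6 CPM at 23 °C and 4.05, 2.25 and 3.83 at 39 °C (−2.76 with TMM (SE 0.12) and −3.67 with library totals), and CSD2, its chloroplast form, at 21.7, 20.8 and 21.9 CPM at 23 °C and 3.99, 2.58 and 2.61 at 39 °C (−1.90 with TMM (SE 0.13) and −2.81 with library totals). CCS, the copper chaperone of both, fell less (−0.66 and −1.56), and FSD1, the iron enzyme, was higher with TMM and not called with library totals (0.92 and 0.01). AT3G15640, annotated as rubredoxin-like, was at 57.4, 64.4 and 64.5 CPM at 23 °C and 9.71, 8.62 and 9.43 at 39 °C (−1.84 with TMM (SE 0.08) and −2.75 with library totals). LAC3, a laccase, was at 19.5, 20.04 and 19.9 CPM at 23 °C and 0.701, 1.04 and 0.444 at 39 °C (−3.85 with TMM (SE 0.19) and −4.75 with library totals). ARPN, the plantacyanin, had 186 counts in the controls and 1 in the heated libraries, a ratio of 187 (95% counting interval 33.2 to 7431). The best match in CSD2 paired at 13 bases, which 33.1% of transcripts equalled, so by this ungapped search it is not distinguished. Those in CCS and AT3G15640 paired with MIR398b at 15 of 21 bases, and 0.987% of transcripts held a match as good. Whether the microRNAs took part in these falls was not tested.

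Trans-acting siRNA precursors, likewise a set chosen after the values were seen, all fell (6 of 6, beside 42.3% of all genes). TAS3 had 955 counts over the control libraries and 6 over the heated ones (−6.36 with TMM and −7.24 with library totals). TAS1A was at 11.8, 12.6 and 14.6 CPM at 23 °C and 0.539, 0.220 and 0.444 at 39 °C (−4.10 with TMM (SE 0.27) and −4.995 with library totals), and TAS2 at 22.8, 25.01 and 29.9 CPM at 23 °C and 1.78, 2.58 and 2.11 at 39 °C (−2.68 with TMM (SE 0.15) and −3.59 with library totals). ETT and ARF4 are the auxin response factors that TAS3-derived siRNAs target. ETT was at 34.1, 28.1 and 24.3 CPM at 23 °C and 2.43, 1.54 and 1.83 at 39 °C (−2.99 with TMM (SE 0.15) and −3.89 with library totals). ARF4 was at 34.5, 34.1 and 33.3 CPM at 23 °C and 2.59, 2.20 and 2.94 at 39 °C (−2.81 with TMM (SE 0.13) and −3.72 with library totals). Both were lower in every heated library as well, where 81.2% of all genes had groups that did not overlap.

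Of 732 tested nuclear non-coding RNAs 132 rose and 289 fell, shares near the 14.4% and 42.3% of all genes, with 79 rising beyond 2-fold. Of those 79, 27 overlapped a coding gene that itself rose beyond 2-fold, against 17 of the 499 non-coding RNAs that passed neither 2-fold limit. AT3G07365, which lies opposite HSP17.4, was at 0.0554, 0.279 and 0.270 CPM at 23 °C and 930.4, 1105 and 949.9 at 39 °C (13.11 with TMM (SE 0.29) and 12.22 with library totals). AT3G04685, overlapping MBF1C, was at 0.333, 0.558 and 0.216 CPM at 23 °C and 113, 132 and 113 at 39 °C (9.22 with TMM (SE 0.34) and 8.32 with library totals). The libraries were strand-specific by the labels, but the strand setting of the counting is not stated, so reads of such pairs cannot be told apart with certainty.

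Some genes were counted at 1 temperature only. Of the tested genes 32 had no count in the 3 control libraries, and 5 of them reached a mean of 10 CPM or more at 39 °C. Besides ATHSP22.0 these were AT1G71000, a DnaJ-domain chaperone gene (at least 13734-fold higher), AT1G48720, annotated as a Copia-like retrotransposon protein (at least 317-fold), the non-coding AT1G09433 (at least 223-fold), and AT5G05220, an uncharacterised gene (at least 194-fold). The floor of 3 counts over the group was used for each. Conversely, 79 genes had no count in the heated libraries, and 0 of them had reached 10 CPM at 23 °C.

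Heat changes differed with gene structure across 20133 coding genes, as a description. Genes of 1 exon had a median log2 change of −0.74 with TMM and −1.64 with library totals, against 0.10 and −0.80 for genes of 6 to 10 exons. Beyond 2-fold, 32.6% of genes of 1 exon fell and 6.22% rose, against 13.5% and 4.56% for genes of 6 to 10 exons. The difference between the 2 medians was −0.84 with TMM. Genes with coding GC content in the lowest of 5 equal bins had a median of −0.64 with TMM and 29.0% falling beyond 2-fold, beside 18.8% of all. Rising genes beyond 2-fold had 1 exon in 18.9% of cases and falling ones in 26.3%, beside 15.2% of all, so genes of 1 exon were more frequent in both sets.

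The same heat in exa1-1 gave largely the same changes. Of the 1106 genes rising beyond 2-fold in the wild type 1103 (99.73%) were higher in exa1-1, where 38.0% of all genes were, and of the 3946 falling 3824 (96.91%) were lower, where 41.4% of all genes were. The difference between genotypes in heat change was itself called for 1695 genes in the positive direction (8.10%) and 1838 in the negative (8.78%). With library totals the counts were 2255 and 1387, so which direction held more genes turned with the scale. It also turned with TMM when any single control library of either genotype was left out. The counts were 2241 and 1710 without replicate 3 of the wild-type controls, and 1739 and 1466 without replicate 1 of the exa1-1 controls. Leaving out any single heated library kept more genes in the negative direction, as in 1398 and 1557 without replicate 1 of the heated wild type. Among the chaperones AT1G53540 changed by 15.41 in the wild type and 14.49 in exa1-1, HSP90.1 by 9.74 and 10.11, and HSFA2 by 12.93 and 12.80, all with TMM. CSD2 had a smaller fall in the wild type (−1.90) than in exa1-1 (−3.48).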

How the data were processed

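Polysome-bound mRNA libraries, strand-specific and paired-end per the labels' protocols, were aligned and counted by the authors with HISAT2 2.0.4, HTSeq 0.6.1p1 and the build TAIR10, per the submitters' processing notes. The annotation release, the strand setting and the treatment of shared reads are not given in the sources used here. The authors deposited a table of raw counts per gene, used for all tests, and a table of FPKM, used for an alternative only.

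The tests used edgeR 4.0.16, with limma 3.58.1, under R 4.3.3. The filter was filterByExpr at its defaults (a count of 10 and a total of 15), and the 12 heat libraries of both genotypes were fitted together by the robust quasi-likelihood method. The common biological coefficient of variation was 0.0539, and adjusted p-values are Benjamini-Hochberg over all 20923 genes. A change beyond 2-fold was tested with glmTreat. Heat against salt was tested in a fit of the 12 wild-type libraries. The scripts were tested on simulated counts. The series describes 3 independent biological replicates per group, and their preparation is not described further, so p-values measure the spread between these samples.

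Groups came from the sample titles. The members, gene lists and tests were chosen with earlier results of these data known, and the genes picked for the text were picked after their values were seen. The rule for named genes took EXA1, the 15 largest changes each way among symbol-bearing genes averaging 5 CPM (TMM-scaled) or more without overlap, the 15 highest levels at each temperature, list members, and the 10 largest differences each way from salt. Alternatives were library totals, DESeq2 1.42.0 and its size factors, upper-quartile factors, other filters, other sets of libraries, FPKM, a replicate block and leaving out each library. Names, positions and sequences come from RefSeq (TAIR10.1), matched by locus. Python 3.11.15, pandas 2.3.3, numpy 2.4.6, scipy 1.17.1 and matplotlib 3.10.9 were used.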

Additional observations from a re-analysis of the deposited data

Results flagged for a closer look

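The heat change of some of the genes named differed between the wild type and exa1-1 by the test of the difference itself (edgeR's quasi-likelihood test, Benjamini-Hochberg adjusted p under 0.05 over all genes), which called 8.10% of all genes in the positive and 8.78% in the negative direction with TMM and, with library totals, more genes in the positive (2255) than in the negative (1387). Values in brackets are the wild-type minus the exa1-1 log2 heat change, with TMM and 3 libraries per group. Genes with 3 counts or fewer over any of the 4 groups were left out, since their fitted change rests on the prior count.

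Among the chaperones and heat regulators the difference was negative for Hop3 (−0.61), HSF4 (−0.50), MBF1C (−0.47), CLPB3 (−0.39), HSP90.1 (−0.37), DREB2A (−0.35), HSP91 (−0.33), HSA32 (−0.30), Hsp70b (−0.29), Cpn60beta2 (−0.24), HSP70 (−0.20) and AT3G09440 (−0.19). BAG2, which fell in the wild type, stood at −1.03. The difference was positive for AT1G53540 (0.93), AT1G07400 (0.62), MTHSC70-2 (0.29), J3 (0.28) and AT4G21870 (0.62), the last being lower in heat in both genotypes. In the ER list the signs were mixed, with BZIP28 at −0.33 against BIP2 (0.24), BZIP60 (0.28) and CNX1 (0.33).

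Among the photosynthesis genes named above the difference was negative for RBCS3B (−0.33), RCA (−0.32) and CAB2 (−0.20), and positive for CAB1 (0.14), LHCB2.1 (0.45) and ELIP1 (1.05). The mitochondrial transcripts cox1 (−1.07), ATMG01390 (−0.59) and ATMG00020 (−0.48) had a negative difference. Other genes with a negative difference were CASP1 (−0.65), GLYI7 (−0.57), PIF4 (−0.56), GolS1 (−0.54), LARP1a (−0.47), COR47 (−0.33), AtATG18a (−0.30) and SR30 (−0.24). A positive difference was found for FSD1 (0.22), TCH4 (0.27), eIFiso4G2 (0.27), BCB (0.51), LTI78 (0.66) and CSD2 (1.58).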

How the results depend on the processing

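The counts of changed genes depended on the scaling. With library totals in place of TMM, 3007 genes were higher and 15476 lower rather than 7999 and 8840, the counts beyond 2-fold became 1106 and 8999 rather than 2834 and 3946, and heat against salt gave 3611 positive and 13619 negative genes rather than 7648 and 8568, over the 21499 genes of the wild-type fit. The difference between genotypes went from 1695 positive and 1838 negative to 2255 and 1387, and with 1 library left out it lay between 1378 and 2241 and between 1397 and 1710. Upper-quartile factors gave 5937 higher and 11228 lower with heat. limma on log2(FPKM + 1) called 2998 higher and 14456 lower and on log2(FPKM + 0.1) 2979 and 14396, FPKM being scaled to the library total. With library totals and the 2 FPKM settings, in that order, the log2 change turned negative for CAB1 (−0.016, −0.015 and −0.015), RBCS1A (−0.35 each), HSP91 (−0.20 each), CASP1 (−0.28, −0.26 and −0.27), HSBP (−0.39, −0.38 and −0.39) and HSF3 (−0.26, −0.22 and −0.25). The difference in median log2 change between genes of 1 exon and of 6 to 10 exons, −0.84, was −0.71 with no count filter, −0.79 with at least 1 CPM in 3 libraries, −0.82 with the 6 wild-type libraries only, −0.32 and −0.69 on the 2 FPKM scales, and between −0.86 and −0.79 with 1 library left out. It stayed negative in each of these.

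For 122 of the genes named, direction and call were kept in 1427 of 1458 gene-by-setting values other than leaving out a library. Of the rest, 9 calls were lost, 4 gained and 18 turned, the last being those above. With 1 library left out, direction and call were kept in 1464 of 1464 values. Same-numbered libraries showed no large shared deviation, as 0 of 18 correlations of their residuals were above 0.1 (−0.049 to 0.050). Whether samples of the same number were grown or prepared together is not stated, and these correlations cannot settle it. A fit with a replicate block called 7992 genes higher and 8796 lower, 2840 and 3933 beyond 2-fold, 7619 and 8532 for heat against salt, 1709 and 1847 for the difference between genotypes and, with library totals, 3013 and 15452. The block with library totals was chosen after seeing the data. Genes with few counts in 1 group, such as AT-HSFA7B, PRR9 and ARPN, are limited by depth, and their intervals cover counting error only. The cause of the other changes was not tested.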

Other observations

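Gene lists not described in detail above moved less evenly. Rises and falls are counted on both scales, beside 14.4% and 42.3% of all genes, and medians are with TMM, beside −0.10 for all genes. Of 11 genes of sugar starvation and trehalose signalling none rose and 9 fell (median −0.67). Of 15 jasmonate genes 3 rose and 4 fell (0.21), of 9 flavonoid genes 1 rose and 3 fell (0.58), and of 6 nitrate genes 1 rose and 2 fell (0.16), all near or below those shares. Of 13 genes of mRNA decay and granules 1 rose and 4 fell (0.01), and of 6 lipid desaturases 1 rose and none fell (0.74). Of 13 nuclear genes for chloroplast ribosomal proteins 11 rose and none fell (1.42). Among 8 tested vascular and meristem markers 1 rose and 2 fell (0.08), and among 5 seed markers 1 rose and 2 fell (−0.80).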
